A study of Mus musculus with 816 samples.

Results

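Substance P and corticotropin-releasing hormone (CRH) were each given alone for 24 h to primary neonatal mouse microglia in 96-well plates, and gene expression was measured by RNA sequencing. Members were chosen from the sample labels: 9 cultures received substance P at 59.3 µM and 6 received CRH at 10 nM, which is 15 of the 784 cultures of the stimulus panel and of the 816 samples of the series. They were compared with 40 untreated cultures of the same age, and 5 cultures that received CRH for 72 h were compared with 25 untreated cultures at 72 h. The cells were bought as lots from a supplier and were stimulated 4 days after plating. No label ties a well to an animal or isolation and the wells of a plate held 1 lot, so p-values measure the spread between these wells, which may be technical. The panel was built to bring cultured microglia into many different states of gene expression.

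Substance P is a tachykinin, cut from the precursor encoded by Tac1, and acts mainly through the neurokinin 1 receptor (Tacr1), a receptor coupled to Gq that raises calcium. CRH is the hypothalamic peptide that starts the hormonal stress response and acts through the receptors Crhr1 and Crhr2, which couple to Gs and raise cyclic AMP. Both peptides are known from nerve endings and mast cells in neurogenic inflammation, and both have been studied as possible signals to microglia.

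The cultures expressed the markers of their label. The summed level of 10 microglial markers, among them Csf1r, Cx3cr1 and Trem2, was 4478 to 7998 reads per 1000000 mapped reads (CPM) in the substance P wells, 4301 to 5557 in the CRH wells and 4359 to 10388 in the untreated wells. None of the 10 was at 0 throughout a group. Mast cell markers, which matter here since mast cells carry receptors for both peptides, summed to at most 2.67 CPM in any substance P well and 0.642 in any CRH well, and 4 of the 6 were at 0 in every well of each group. Fibroblast and pericyte markers varied most, from 32.3 to 1148 CPM under substance P, from 31.1 to 244.9 under CRH and from 0.650 to 1284 in untreated wells. Depth, in units of 1000000 mapped reads and estimated from the step between low values, was 1.60 to 7.87 for substance P, 1.40 to 7.71 for CRH and 1.09 to 14.99 for untreated wells.

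The layout limits the comparison. Plate 1 held 3 substance P, 3 CRH and 6 untreated wells. Plate 2, the shallow one, held 3 of each. Plate 3, seeded with another cell lot, held 3 substance P and 9 untreated wells, and the other 22 untreated wells were on 3 further plates. Plate and well type (6 positions such as corner, edge side and middle) therefore entered each fit as factors, and a difference printed below is the fitted log2 fold change of CPM + 1 with its 95% confidence interval. Of the 6 CRH wells, 2 were in a well type marked B_Edge that no other well of the fit had, so the CRH estimate rested on 4 wells. On neither plate did an untreated well share the well type of a CRH well, and the fit matched well types only across plates. Within a plate, well position and CRH therefore cannot be told apart in the values below. Libraries were also made in pools. On plate 1 all peptide wells shared 1 pool with 3 of the 6 untreated wells, on plate 3 the substance P wells shared 1 pool with 4 of the 9, and the ranges given by plate below span both pools. A fit with pool in place of plate is therefore given for many of the values that it moved, but not for all.

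The receptors for both peptides were listed at or near 0. Tacr1, the substance P receptor, was above 0 in 2 of 9 substance P wells, 2 of 6 CRH wells and 4 of 40 untreated wells, and its highest level in each group was 0.615, 0.321 and 0.852 CPM. A single read was worth 0.127 to 0.624 CPM in the substance P wells and 0.0667 to 0.918 in the untreated wells, so these were levels of a few reads at most. Crhr1, the main CRH receptor, was listed at 0 in all 6 CRH and all 9 substance P wells and was above 0 in 1 of the 40 untreated wells, at 2.37 CPM. Crhr2, the second CRH receptor, was listed at 0 in all 55 wells. So were the tachykinin receptors Tacr2 and Tacr3 and the mast cell and sensory neuron receptors Mrgprb2 and Mrgpra1, which bind substance P at high concentration. None of the 7 receptors passed the filter for testing (more than 5 CPM in at least 4 wells), so no difference was tested for them. Transcripts at this depth do not measure the receptor protein.

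The peptides' own genes were also at or near 0. Tac1 (substance P and neurokinin A), Tac2 (neurokinin B), Crh, and the CRH relatives Ucn and Ucn3 were listed at 0 in all 55 wells. Tac4, which encodes a tachykinin of blood cells, was above 0 in 2 substance P wells, 1 CRH well and 1 untreated well, never over 1.27 CPM. Ucn2 was above 0 in 1 well of each group, at most 1.29 CPM. Crhbp, the secreted protein that binds CRH, was at 0 in all wells.

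Enzymes that can cut these peptides were partly present. Mme (neprilysin), the membrane peptidase best known for cutting substance P, was above 0 in 4 of 9 substance P wells, 2 of 6 CRH wells and 13 of 40 untreated wells and reached 1.35, 1.36 and 1.83 CPM. Ace and Dpp4, which also act on substance P, were at 0 in all substance P and untreated wells. Ece1, the endothelin-converting enzyme that degrades substance P in endosomes, was expressed in every well, at 9.71 to 32.04 CPM (median 20.2) with substance P, 10.8 to 21.05 (median 13.8) with CRH and 5.51 to 45.5 (median 14.4) without. The 3 ranges overlapped. Ece2, Prep and Ide were also expressed, with medians of 6.21, 12.5 and 44.9 CPM under substance P and 6.52, 9.62 and 48.6 in untreated wells. Of the 8 genes in this group, 4 passed the filter, and their median log2 fold change was 0.02 for substance P and 0.04 for CRH, against -0.02 and 0.01 over all genes tested.

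**Figure D1:**
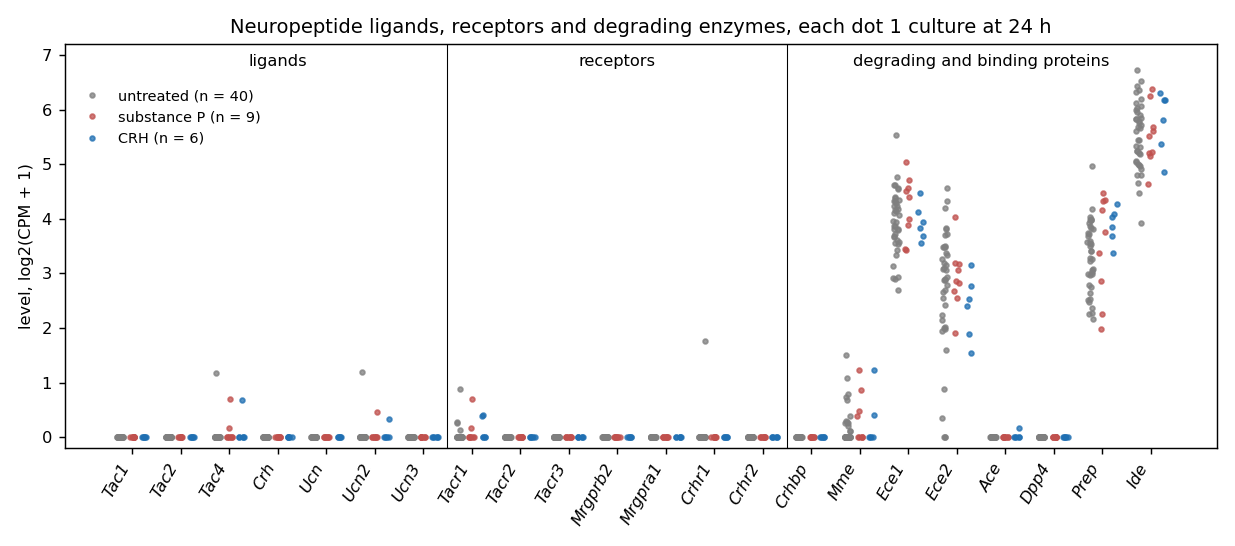
Level of each ligand, receptor and peptide-cutting or peptide-binding gene on the y axis, as log2(CPM + 1), with each dot 1 culture at 24 h, coloured by group. Ligands and receptors lie at or near 0 in all groups, and only Ece1, Ece2, Prep and Ide are expressed in nearly all wells.

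The main result was that no gene passed the test for either peptide at 24 h. With plate and well type in the fit, limma called 0 of 11691 genes for substance P (0%) and 0 for CRH (0%) at a Benjamini-Hochberg adjusted p under 0.05. The smallest adjusted p was 0.394 for substance P and 0.9998 for CRH. At an unadjusted p under 0.05 there were 801 genes for substance P (6.85%), of which 319 were higher (2.73%) and 482 lower (4.12%). For CRH there were 230 (1.97%), of which 128 were higher (1.09%) and 102 lower (0.872%). The balance under substance P was not stable: with library pool in place of plate 309 genes were higher and 203 lower, and without 1 well of plate 3 (replicate 8) 293 and 252. Leaving out 1 CRH well of plate 1, the only one in a corner, gave 568 genes at an unadjusted p under 0.05 and again no call.

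The precision differed between the peptides. The median standard error of the log2 fold change was 0.28 for substance P and 0.49 for CRH. The 95% interval lay wholly within a 2-fold change for 8494 of the 11691 genes (72.7%) under substance P and for 3615 (30.9%) under CRH. For the other genes, which were the majority under CRH, the interval reached past a 2-fold change. In bulk cultures, fewer cells of a type and less RNA per cell cannot be told apart.

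Each culture was also compared with the mean of the untreated wells of its plate. On plate 1, the correlation across genes with the mean of the untreated wells was 0.961 to 0.974 for substance P, 0.962 to 0.974 for CRH and 0.953 to 0.974 for each untreated well against the rest. On plate 2 it was 0.935 to 0.946, 0.931 to 0.938 and 0.921 to 0.934, and on plate 3 it was 0.924 to 0.932 for substance P and 0.837 to 0.936 for untreated wells. These correlations are descriptions: genes are not replicates, and the shared plate, pool and depth enter each value. Untreated wells were set against a mean of 1 well fewer than treated wells were, and the 3 lowest untreated wells of plate 1 were those of the other pool, so the ranges do not rank the groups.

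Some other stimuli on the same plates gave many calls, and others gave few. When all 38 single stimuli at 24 h were fitted together, in 374 cultures and with 14208 genes, substance P had 0 calls (0%) and CRH had 2 (0.0141%), and 5 of the 38 stimuli had 2 or fewer. The stimuli share the untreated wells. IL13 and IL10, also with 9 cultures each and all on the same 3 plates as the peptides, had 264 and 366 calls at a median standard error of 0.27, the same as for substance P. IFNg, with 9 cultures on those plates, had 3601, and PA, with 6 cultures on those plates, had 110 at a median standard error of 0.32, the same as for CRH. Eotaxin (8 cultures), glutamate (7) and OA (8), also with all cultures on those plates, had 0, 2 and 4 calls. For 2AG and LiA, with 9 cultures each there, the counts were 7 and 17.

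**Figure D2:**
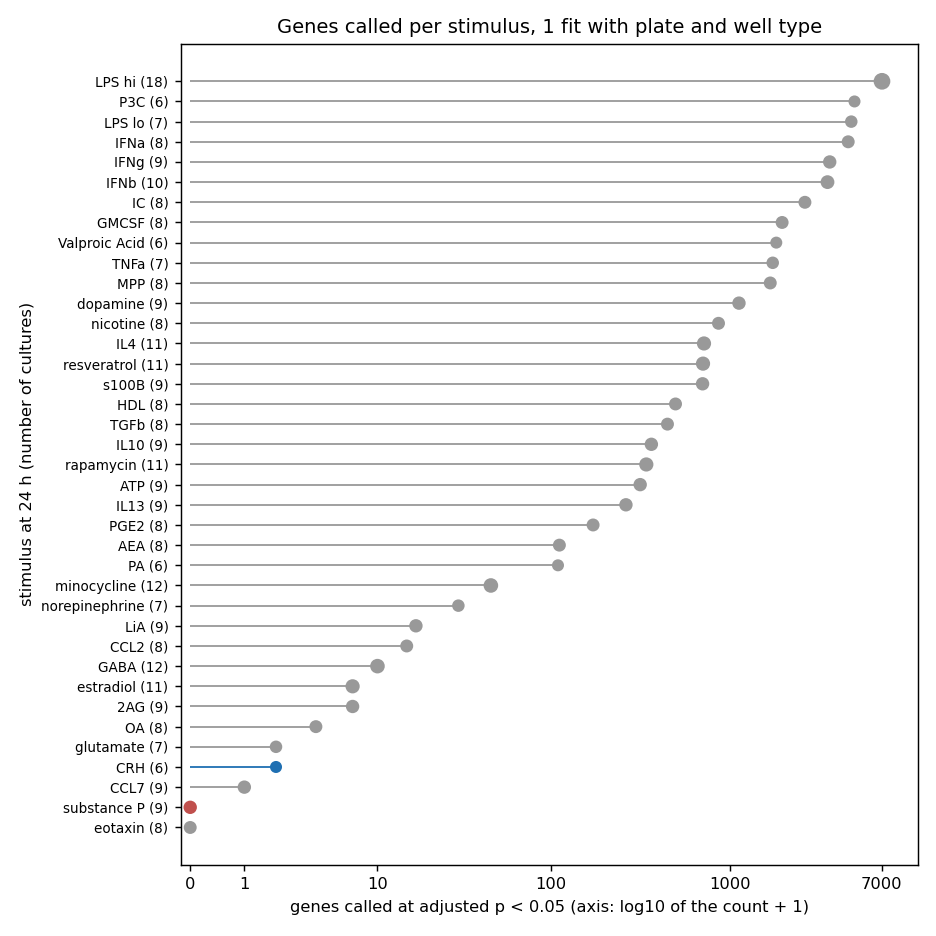
Number of genes called for each of the 38 single stimuli at 24 h (x axis, log10 of the count + 1), from 1 fit with plate and well type, with the number of cultures in brackets after the stimulus label. Substance P (red, 0 calls) and CRH (blue, 2 calls) are at the low end, where eotaxin, CCL7 and glutamate also lie.

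The 2 genes called for CRH in that fit were B930082K07Rik and Pdgfrl, named here because the count is small. B930082K07Rik was at 3.82, 9.90 and 14.3 CPM in the CRH wells of plate 2, where the untreated and the substance P wells were all at 0, and at 0, 1.69 and 4.21 on plate 1, where the untreated wells reached 2.61. Pdgfrl, a secreted protein related to the platelet-derived growth factor receptor, was at 1.43, 3.30 and 7.75 CPM with CRH and 0.444 to 1.70 without on plate 2. A read was worth 0.636 to 0.716 CPM in the CRH wells of plate 2, and Pdgfrl levels on plate 1 are not given here. The fitted log2 fold changes of the 2 genes were 1.73 (0.34, SE) and 1.35 (0.28), with adjusted p values of 0.00868 and 0.02005 in limma. Both are low, and neither passed the filter in the fit of the 3 groups alone.

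The genes of smallest p under substance P are given as descriptions, since none was called. Each had the same sign on all 3 plates, which the choice required. Clic4, a chloride intracellular channel protein, had the smallest. It was at 327, 373 and 406 CPM in the substance P wells of plate 1 against 239 to 373 (median 277) in the untreated wells, at 340, 371 and 405 against 251, 326 and 360 on plate 2, and at 192, 235 and 259 against 121 to 236 (median 180) on plate 3. The groups overlapped on every plate. Its fitted difference was 0.47 (0.26 to 0.67), with an adjusted p of 0.394.

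Ets2, a transcription factor of the ETS family, stood clear of the untreated wells on 2 plates. It was at 85.9, 89.8 and 93.6 CPM with substance P against 44.2 to 67.2 (median 55.4) without on plate 1, and at 33.5, 42.5 and 66.7 against 22.8 to 29.3 (median 26.4) on plate 2. On plate 3, 71.4, 91.6 and 140.2 CPM overlapped 48.5 to 93.3 (median 67.0). The fitted difference was 0.64 (0.33 to 0.96). CRH wells were between 53.3 and 67.1 CPM on plate 1, within the untreated range, and between 35.8 and 70.6 on plate 2, above it.

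The other genes higher by this rule were Sptan1, a spectrin of the membrane skeleton, with a difference of 0.59 (0.30 to 0.88), Cd300ld, a myeloid receptor of the CD300 family, with 0.62 (0.31 to 0.93), and Oraov1, with 1.54 (0.74 to 2.33). Cd300ld was at 101 to 111 CPM with substance P and 68.2 to 98.8 without on plate 1, and at 97.9 to 124 and 52.8 to 74.8 on plate 2. These did not overlap, whereas those of plate 3 did. With library pool in place of plate, Clic4, Ets2 and Cd300ld had 0.32, 0.51 and 0.70, while Sptan1 had 0.37 and Oraov1 0.17. Oraov1 spread from 9.33 to 235 CPM among the 6 untreated wells of plate 1 alone, which held all 3 substance P wells at 182 to 234.

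On the lower side, the gap was widest on plate 3. Trappc10, a subunit of a vesicle-tethering complex, was at 0.368, 5.52 and 8.48 CPM with substance P and 11.8 to 29.5 (median 19.1) without on plate 3, while on plate 2 the ranges were 20.7 to 24.95 and 26.4 to 34.6, also apart, and on plate 1 they were 23.7 to 34.8 and 25.3 to 40.4 and overlapped. Slc50a1, a sugar transporter, was at 2.76, 4.55 and 9.42 against 7.86 to 49.8 on plate 3. Their fitted differences were -0.98 (-1.50 to -0.46) and -1.09 (-1.67 to -0.51). Set, a histone chaperone, had -0.67 (-1.03 to -0.32), Ddx24, an RNA helicase, -0.54 (-0.84 to -0.24), and the pseudogene Rpl38-ps2, whose reads can be shared with copies of Rpl38, -1.75 (-2.70 to -0.80). With library pool in place of plate, Trappc10 had -1.02, while Slc50a1 had -0.66, Set -0.28, Ddx24 -0.23 and Rpl38-ps2 -0.87. These genes were not particular to substance P. With CRH, Clic4 had 0.39 (0.03 to 0.74), Sptan1 0.74 (0.24 to 1.24) and Ddx24 -0.62 (-1.14 to -0.10). These 3 and Oraov1 and Slc50a1, given below, had an unadjusted p under 0.05 with CRH, beside 1.97% of all genes. The others had the same sign with CRH at a larger p. Both peptides were set against the same untreated wells.

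**Figure D3:**
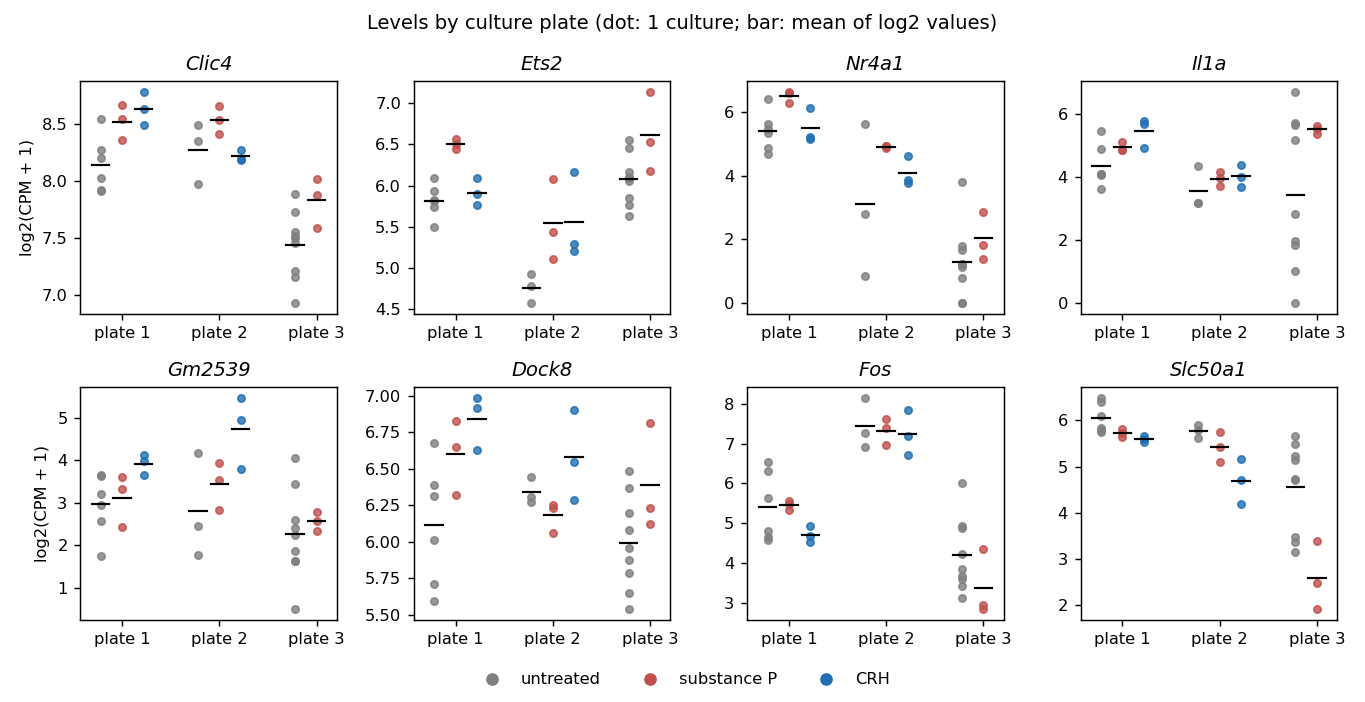
Level of 8 genes on the y axis, as log2(CPM + 1), on the 3 plates that held peptide wells; each dot is 1 culture and each bar the mean of its group on that plate. Ets2 is higher with substance P than in all untreated wells on plates 1 and 2 and overlaps them on plate 3. For Nr4a1 and Fos the plates differ more than the groups do, and for Il1a substance P and untreated wells overlap on every plate.

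Genes that answer cyclic AMP and CREB, the route of the CRH receptors, showed no call. Of 16 genes, 14 were tested, and the median log2 fold change was -0.15 for CRH and 0.27 for substance P, against 0.01 and -0.02 over all genes. By plate, the substance P median was 0.35, 0.24 and 0.07 on plates 1, 2 and 3, and the CRH median 0.12 and 0.09 on plates 1 and 2, where all genes stood at 0.07, 0.01 and -0.16 and at 0.10 and 0 in turn. With substance P, 2 of 14 members were higher at an unadjusted p under 0.05, beside 2.73% of all genes. With CRH none was, beside 1.09%.

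Both of those members encode early response proteins. Nr4a1, an orphan nuclear receptor, was at 77.9, 96.6 and 99.1 CPM with substance P against 24.8 to 83.3 (median 41.7) without on plate 1, at 28.3, 29.3 and 29.6 against 0.814, 5.96 and 48.8 on plate 2, and at 1.62, 2.58 and 6.28 against 0 to 13.1 (median 1.32) on plate 3. The plates differed more than the groups did, and the fitted difference was 1.08 (0.19 to 1.98) with an adjusted p of 0.677. With CRH it was -0.66 (-2.21 to 0.89), and the sign turned to 0.37 with plate alone in the fit. Library pool in place of plate gave 1.54 for Nr4a1 with substance P and -0.10 with CRH. Dusp1, a phosphatase that switches off MAP kinases, was at 60.5, 67.3 and 69.7 CPM with substance P and at 45.5 to 58.7 without on plate 1, and at 51.1, 59.6 and 63.0 against 35.01 to 42.1 on plate 2. Those groups did not overlap, and on plate 3 they did (17.6 to 40.3 against 5.72 to 44.0). Its fitted difference was 0.69 (0.12 to 1.27), with an adjusted p of 0.677. With CRH the fitted difference of Dusp1 was 0.44 (-0.56 to 1.43). Within plates Dusp1 was higher with both peptides, and the exact rank-sum test gave an unadjusted p of 0.00597 for substance P and 0.00357 for CRH. The rise was thus not particular to substance P.

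CREB binds the cyclic AMP response element, and the promoters of 3 early response genes are shown. They are the members of the cyclic AMP and immediate early lists that were higher with substance P at an unadjusted p under 0.05. The choice was thus not independent of the expression values. A link between the element and their levels was not tested. The 250 bases before the start site of Nr4a1, Dusp1 and Btg2, the last from the immediate early list, are from RefSeq (GRCm38.p6, while the labels of the series name another build), 5′ to 3′ on the strand of the gene. Capitals mark the full element TGACGTCA and its shorter cores TGACG and CGTCA. Both strands were searched, and 1 full element holds both cores, which overlap. Nr4a1 lies at chr15:101266596-101266845 on the + strand, Dusp1 at chr17:26508473-26508722 on the - strand and Btg2 at chr1:134079156-134079405 on the - strand.
Nr4a1: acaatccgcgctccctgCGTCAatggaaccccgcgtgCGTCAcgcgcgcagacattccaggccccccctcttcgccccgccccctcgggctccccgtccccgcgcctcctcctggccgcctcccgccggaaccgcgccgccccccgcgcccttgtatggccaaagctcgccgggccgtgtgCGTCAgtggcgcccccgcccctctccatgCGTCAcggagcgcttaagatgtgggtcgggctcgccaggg
Dusp1: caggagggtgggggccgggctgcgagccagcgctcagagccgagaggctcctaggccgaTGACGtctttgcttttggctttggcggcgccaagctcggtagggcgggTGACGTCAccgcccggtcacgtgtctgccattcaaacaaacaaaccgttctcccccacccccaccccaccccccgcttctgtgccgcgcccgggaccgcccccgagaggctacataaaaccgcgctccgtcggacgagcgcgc
Btg2: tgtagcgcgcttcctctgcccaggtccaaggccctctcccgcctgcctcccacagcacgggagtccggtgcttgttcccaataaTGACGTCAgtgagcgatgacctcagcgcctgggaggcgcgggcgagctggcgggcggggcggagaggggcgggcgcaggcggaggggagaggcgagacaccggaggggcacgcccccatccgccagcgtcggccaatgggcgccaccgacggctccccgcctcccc
Nr4a1 holds 4 cores and no full element, while Dusp1 and Btg2 each hold 1 full element. The full element stands in 1.55% of all 32851 windows of this length and a core in 17.8%, and by gene in 3.29% and 31.7% of the 8350 tested genes with a window. Of the 16 genes of the cyclic AMP list, 14 had a window. Of these, 10 held a core, and 2, Dusp1 and Areg, held the full element. No comparison of all tested genes with and without the element is given, since only 71.4% of them had a window. A match of letters is a description and not a binding site.

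Immediate early genes, which calcium and kinase signals switch on within minutes, were measured here after 24 h. Of 19, 18 were tested, and their median was -0.07 with substance P and -0.05 with CRH. Btg2, a growth-arrest gene, had a difference of 0.77 (0.08 to 1.47) with substance P. Fos, a subunit of the AP-1 factor, was at 22.2, 24.4 and 29.5 CPM with CRH against 22.9 to 92.1 (median 37.6) without on plate 1, and at 104, 144 and 229 against 121 to 284 on plate 2, with a fitted difference of -0.9997 (-1.93 to -0.07) and an unadjusted p of 0.0359. Its level on plate 2 was several times that on plate 1 in all groups.

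The signalling proteins beneath the receptors were expressed. Of the 24 G protein, cyclase, kinase and arrestin genes, 22 were in the files and tested. In each comparison 1 was lower at an unadjusted p under 0.05, beside 4.12% of all genes with substance P and 0.872% with CRH. Creb1, the factor that binds the element shown above, had -0.43 (-0.79 to -0.07) with substance P. Adcy3, an adenylyl cyclase, had -1.95 (-3.34 to -0.57) with CRH: it was at 0 in the 3 CRH and the 3 substance P wells of plate 2 and at 4.47, 5.79 and 21.4 CPM in the untreated wells there, while on plate 1 all groups were at or below 7.35 CPM. Gnas, which encodes the Gs protein that carries the CRH signal, had -0.0015 (-0.21 to 0.20) with substance P and -0.03 (-0.39 to 0.32) with CRH.

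Inflammatory genes of the NF-kB group, widely used to read microglial activation, had no call. Of 35 genes, 30 were tested, and the median was 0.15 with substance P and 0.09 with CRH. At an unadjusted p under 0.05, 3 were higher and none lower with substance P, and none in either direction with CRH. Over all genes 2.73% were higher and 4.12% lower with substance P, and 1.09% and 0.872% with CRH. For 20 of the 30 the interval under substance P lay within a 2-fold change, and for 12 under CRH. Tnf, added here outside the rule for named genes as the best known of them, was at 83.8 to 95.3 CPM with substance P and 49.1 to 120 without on plate 1, and had 0.16 (-0.27 to 0.58) with substance P and 0.59 (-0.15 to 1.33) with CRH. Il1b, added likewise after its values were seen, had 0.53 (-0.25 to 1.31) and 0.77 (-0.57 to 2.12). Library pool in place of plate gave -0.47 and -0.12 for Il1b.

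The 3 members higher with substance P were Il1a, Lcn2 and Cd14. Il1a, an interleukin 1 cytokine, was at 28.1, 28.4 and 34.1 CPM with substance P against 11.2 to 43.2 (median 16.09) on plate 1, at 12.32, 14.8 and 16.8 against 7.99 to 19.6 on plate 2, and at 40.6, 45.8 and 49.1 against 0 to 105 (median 6.16) on plate 3. The untreated wells of plate 3 spanned the whole range of the other plates, and the groups overlapped everywhere. The fitted difference was 1.17 (0.28 to 2.07), with an adjusted p of 0.639, and it was -0.24 without covariates. Lcn2, an iron-binding acute-phase protein, was at 18.2, 21.03 and 25.03 CPM on plate 3 against 0 to 43.2 (median 0) and at or under 3.13 elsewhere, with a difference of 1.26 (0.26 to 2.25). Cd14, the LPS co-receptor, was at 206, 379 and 399 CPM against 104 to 207 on plate 1 but at 114, 142 and 157 against 127 to 256 on plate 2, with 0.52 (0.09 to 0.96). With library pool in place of plate, Il1a had 0.04, Lcn2 0.05 and Cd14 0.02, and the list median was -0.02.

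Interferon response genes gave no call either. All 20 were tested, none had an unadjusted p under 0.05 in either comparison, and their medians were -0.08 with substance P and 0.01 with CRH. Irf1, with the smallest p of the group, had -0.94 (-1.90 to 0.02) with CRH. MHC genes (9 of 13 tested) and alternative activation genes such as Mrc1 and Retnla (5 of 11 tested) likewise had no member at an unadjusted p under 0.05, with medians of -0.19 and -0.28 for substance P and 0.00 and 0.13 for CRH. Library pool in place of plate gave -0.07 and -0.06 for substance P and -0.36 and 0.09 for CRH. The interferon median with CRH was then -0.18.

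Markers of microglial state were not called in either comparison. Of 20 homeostatic genes, 18 were tested, with medians of -0.01 and 0.18, and under substance P 2 were higher and 2 lower at an unadjusted p under 0.05. Over all genes 2.73% were higher and 4.12% lower at that p. Gpr34, a lysophospholipid receptor, had -0.78 (-1.53 to -0.03) and Fcrls, a microglial Fc receptor-like protein, -0.37 (-0.72 to -0.01), while Selplg, a selectin ligand, had 0.26 (0.0032 to 0.51). Of 20 disease-associated genes, 19 were tested, with medians of -0.10 and -0.13, and again 2 were higher and 2 lower under substance P. Fabp5, a fatty acid carrier, had -0.45 (-0.70 to -0.20) and Lgals3, galectin 3, -0.43 (-0.75 to -0.12), while Gpnmb, a transmembrane glycoprotein, had 0.21 (0.02 to 0.41) and Lpl, lipoprotein lipase, 0.38 (0.0084 to 0.75). With library pool in place of plate these 4 had -0.18, -0.07, 0.13 and 0.25, and Selplg 0.04. None of either group had an unadjusted p under 0.05 with CRH.

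Among the other lists, 5 of 25 cytosolic ribosomal proteins were lower with substance P at an unadjusted p under 0.05 and none higher, beside 4.12% of all genes lower, with a list median of -0.13 that was -0.01 with library pool in place of plate. Rpl7, of the large subunit, had -0.49 (-0.80 to -0.18). The metallothioneins Mt2 and Mt1, which bind zinc and answer metals and oxidants, had -0.83 (-1.30 to -0.35) and -0.67 (-1.11 to -0.22), and were the only members of 15 NRF2 antioxidant genes with an unadjusted p under 0.05. With library pool in place of plate they had -0.46 and -0.07, Rpl7 had -0.27, and of the genes named next Marco had -0.0033 and Cdc20 0.43. Mt2 was at 50.7, 51.7 and 61.5 CPM with substance P and 66.0 to 112 (median 88.8) without on plate 1, which did not overlap, and at 31.4, 50.4 and 56.3 against 42.7 to 57.0 on plate 2, which did. Gdf15, a stress cytokine, had -0.97 (-1.75 to -0.20), Marco, a scavenger receptor, 0.72 (0.17 to 1.28), Cdc20, a mitotic protein, 0.94 (0.20 to 1.69), and Srebf2, the factor that drives cholesterol synthesis, -0.37 (-0.69 to -0.06). At that p, 1 of 10 growth factors and 1 of 18 cholesterol genes were lower, with list medians of -0.09 and -0.08. Higher were 1 of 19 lysosome and 2 of 20 proliferation genes, beside 2.73% of all genes, with medians of -0.04 and -0.0001. The proliferation median was 0.20, 0.38 and -0.90 on plates 1, 2 and 3. For Gdf15, Marco and Cdc20, 1 culture stood apart, as given below. In lists of ER stress and of LXR and PPAR lipid genes no member had an unadjusted p under 0.05 with either peptide.

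Glucocorticoid response genes were included because CRH drives glucocorticoids in the body. Of 8, 6 were tested, and their median was 0.38 with CRH and 0.09 with substance P. No member had an unadjusted p under 0.05 with CRH, and no member's interval lay within a 2-fold change. Fkbp5, the best known of them, had 0.56 (-0.38 to 1.51) and Sgk1, a kinase, 0.57 (-0.18 to 1.31). Library pool in place of plate gave 0.46 for Fkbp5, -0.06 for Sgk1 and a list median of 0.12 with CRH.

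**Figure D4:**
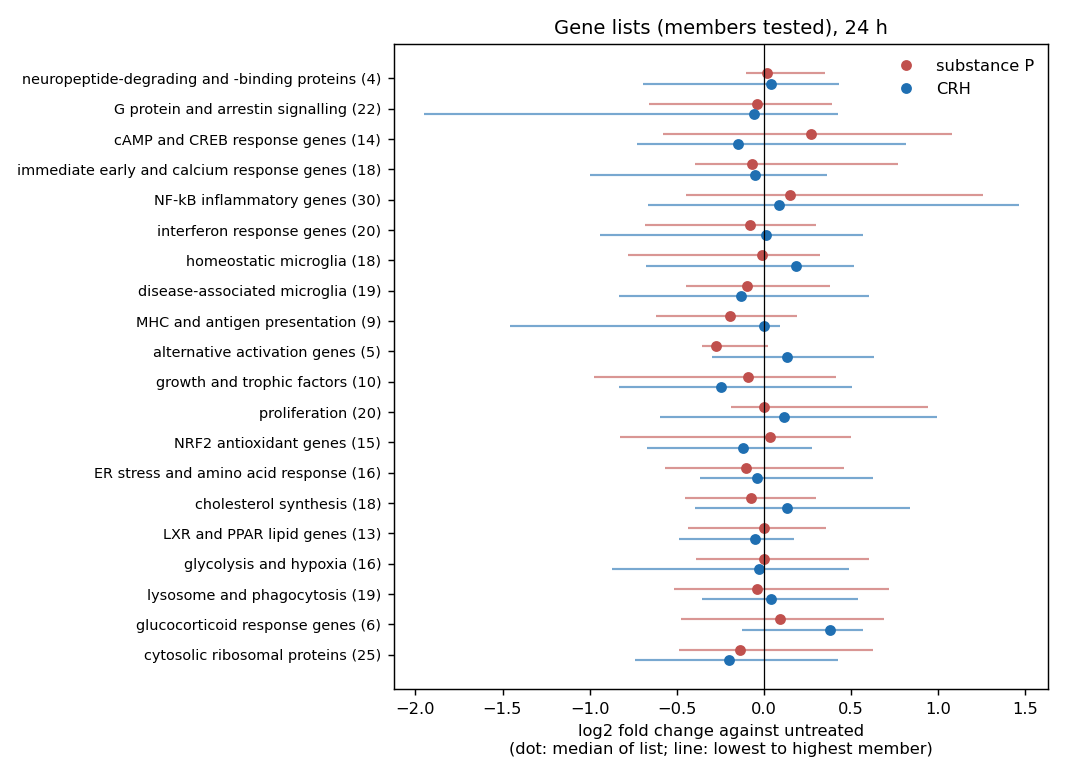
Log2 fold change against untreated wells on the x axis for 20 gene lists, with the number of members tested in brackets; the dot is the list median and the line runs from the lowest to the highest member, in red for substance P and blue for CRH. List medians lie between -0.28 and 0.27 for substance P and between -0.25 and 0.38 for CRH, and the medians over all genes are -0.02 and 0.01.

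The 31 gene modules used here were chosen by the study on these samples and are therefore no independent grouping. Their median log2 fold changes ran from -0.13 (module BR_blue, 40 genes tested) to 0.16 (CY_turquoise, 38) with substance P and from -0.36 (RE_brown, 9) to 0.23 (PI_blue, 16) with CRH. The medians over all genes were -0.02 and 0.01.

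For CRH, the genes of smallest p were a mixed set. Gm2539, a long noncoding RNA, was at 11.5, 14.8 and 16.6 CPM with CRH against 2.39 to 11.6 (median 7.44) without on plate 1, and at 12.9, 29.7 and 43.3 against 2.44, 4.44 and 17.03 on plate 2. The fitted difference was 2.11 (0.88 to 3.35), with an adjusted p of 0.9998. Dock8, an activator of the GTPase Cdc42 in leukocytes, was at 98.0, 120 and 126 CPM against 47.3 to 101 on plate 1 and at 77.2, 92.6 and 119 against 76.3 to 86.0 on plate 2, with 0.82 (0.31 to 1.33). Both overlapped the untreated wells, Gm2539 narrowly on plate 1. The others on the higher side were Oraov1 with 2.29 (0.91 to 3.67), Prg4 (lubricin) with 1.71 (0.63 to 2.79) and Ifih1, the RNA sensor MDA5, with 1.03 (0.38 to 1.69).

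On the lower side were Ap2m1, a clathrin adaptor subunit used in receptor uptake, with -0.91 (-1.51 to -0.30), Slc50a1 with -1.46 (-2.47 to -0.46), Yam1 with -1.63 (-2.78 to -0.48), Clspn, a replication checkpoint protein, with -1.70 (-2.91 to -0.49), and Hjurp, a centromere chaperone, with -1.08 (-1.86 to -0.30). Slc50a1 did not overlap on either plate: it was at 45.3, 47.2 and 49.9 CPM with CRH against 53.0 to 88.9 on plate 1 and at 17.2, 25.1 and 34.99 against 48.4 to 58.8 on plate 2. On both plates the CRH and the untreated wells were of different well types, so position and peptide cannot be told apart there. With plate 2 left out and well type reduced to edge or middle, Clspn and Hjurp had 0.25 and 0.10. In the fixed lists, Eno1, an enzyme of glycolysis, had -0.47 (-0.83 to -0.11), Lipa, the lysosomal acid lipase, 0.54 (0.04 to 1.04), and Mcm2, a replication protein, 0.66 (0.03 to 1.29), and none was called. With library pool in place of plate, Gm2539, Slc50a1, Yam1, Clspn and Hjurp had 1.56, -1.17, -1.18, -2.04 and -1.48, while Oraov1, Dock8, Prg4, Ifih1 and Ap2m1 had 0.36, 0.45, 0.84, 0.64 and -0.26 and Eno1, Lipa and Mcm2 -0.14, 0.25 and 0.04.

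No gene passed the test of the difference between the peptides. The contrast of substance P with CRH called 0 of 11691 genes (0%), with 133 at an unadjusted p under 0.05 (1.14%), and the median standard error was 0.48. For 3900 genes (33.4%) the interval of the difference lay within a 2-fold change, so for the others the interval held a difference of that size. The doses were unlike and both peptides were set against the same untreated wells. In the fit of all stimuli, 1 gene was called for this contrast (0.00704%), B930082K07Rik, at -2.17 (0.40, SE).

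Calls for CRH appeared when plate was left out of the fit. Without covariates, 170 genes were called for CRH (1.45%), 121 higher and 49 lower, against 0 with plate in the fit. These 170 genes were chosen on that contrast, in which their median log2 difference was 1.21 for the higher and -1.06 for the lower ones. Against the 9 untreated wells of plates 1 and 2, the medians of the same genes were 0.36 and -0.26, and 23 of the 170 had an unadjusted p under 0.05 with plate and well type in the fit. Among untreated wells alone, the 9 on plates 1 and 2 differed from the other 31 by a median of 0.23 over all genes tested. For the called genes that median was 1.03 in the 121 higher and -0.95 in the 49 lower ones, with the same sign for all of them. The other 31 wells also enter the contrast on which these genes were chosen. A rank-sum test of each gene over all wells called 1040 genes for CRH (8.9%), and the exact test with labels exchanged only within plates called 0 (0%). That last test cannot go below a p of 0.00119 with 6 CRH and 9 untreated wells on 2 plates. After Benjamini-Hochberg adjustment over 11691 genes, a gene at that floor passes only if many genes reach it. The smallest adjusted p of this rank-sum test was 0.696. Within each plate it set CRH wells against untreated wells of other well types.

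For substance P, leaving out the covariates gave 0 calls (0%) and 1055 genes at an unadjusted p under 0.05. The rank-sum test over all wells called 1 gene (0.00855%), Cmtm3, a chemokine-like membrane protein, named because the count is 1. It was at 304 to 352 CPM with substance P against 206 to 282 without on plate 1, which did not overlap, and at 346 to 405 against 328 to 354 on plate 2 and 330 to 391 against 194 to 346 on plate 3, which did. Its fitted difference in limma was 0.32 (0.12 to 0.53), with an adjusted p of 0.582. Within plates the rank-sum test called 0 (0%).

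After 72 h of CRH genes were called, in a layout where CRH and well position coincide. The 5 CRH wells were on 2 plates, 2 wells on one and 3 on the other. On neither plate did an untreated well share the well type of a CRH well, so plate and well type could not be fitted together, and well position and peptide cannot be told apart. With plate alone, 260 of 10790 genes were called (2.41%), 119 higher (1.1%) and 141 lower (1.31%). Without covariates 34 were called, all of them lower, on single plates 3 and 135, with well type as edge or middle 444 and in a joint fit with the 24 h wells 148. The plate differences had a correlation of 0.0109 across genes. The mitochondrial share of reads was 1.70% to 1.76% with CRH and 0.928% to 3.00% without on the plate with 2 CRH wells, but 1.42% to 1.58% with CRH and 5.02% to 6.02% without on the plate with 3, and its part in the calls was not tested.

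The called genes that differed most were Slc9a9, a sodium and proton exchanger of endosomes, with 3.80 (2.74 to 4.86), Clybl, Ccnf, Zscan22 and Selenbp1 on the higher side, and 2610037D02Rik, Runx2, RP24-500I24.6, mt-Nd2 and RP23-324P1.1 on the lower, from -3.53 to -3.09. At 24 h Slc9a9 had 0.06 and Runx2, a transcription factor, 0.57 with CRH. Slc9a9 differed by 5.22 on one plate and 2.85 on the other, and its mean was 46.3 ± 35.03 CPM (SD, n = 5) with CRH and 34.8 ± 41.9 (SD, n = 25) without, over all plates. Of the lists, NRF2 antioxidant genes had 6 of 15 members called lower and none higher, with a median of -0.84, homeostatic genes had 3 of 19 called higher, with 0.61, lysosome and phagocytosis genes also 3 of 19, with 0.25, and proliferation genes 2 of 20, with 1.05, where all genes tested had -0.03. Over all genes tested, 1.31% were called lower and 1.1% higher. No other list had more than 2 members called. Of the 260 genes, 259 were tested at 24 h, and 3 had an unadjusted p under 0.05 and the same sign there. Over all genes tested at 24 h, 1.97% had such a p with CRH, in either direction. The difference between the CRH effects at 72 h and 24 h, fitted over all 5 groups with plate and well type, was called for 67 of 12329 genes (0.543%). Tacr1 was at 0.649 CPM in 1 of the 5 CRH wells at 72 h and Crhr1 and Crhr2 were at 0 in all 5.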

How the data were processed

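Cells were lysed and RNA was sequenced by 3′ end libraries after pooled T7 amplification. The deposited values are CPM: the authors assigned reads to transcripts of Ensembl build 81 (Salmon 0.7.1 per the submitters' processing notes), added them up by gene and scaled each library by its mapped reads. The labels name build mm8, so no coordinates of theirs were used. Low values were whole multiples of 1 read too seldom to recover counts, so no count test was run. Of 784 culture columns, 404 were used and 380 were not. Values were analysed as log2(CPM + 1), with genes above 5 CPM in at least 4 cultures, in limma 3.58.1 (R 4.3.3) with trended moderation, plate and well type as factors and Benjamini-Hochberg adjustment. A gene was called at an adjusted p under 0.05. At 72 h plate and well type could not be fitted together, so plate alone was used, a departure from the design. Fits were tested on simulated data. The members and lists were chosen with earlier results of these data known. Named genes were the 5 of smallest p in each direction with the same sign on every plate and a mean of at least 5 CPM, all ligands and receptors, and up to 4 members of each list. At 72 h they were the 5 called genes of largest difference in each direction.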

Additional observations from a re-analysis of the deposited data

Results flagged for a closer look

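In 8 of 75 groups of values tested, 1 culture stood apart from the others. For normal values of 1 spread chance gives about 1 in 20, but these values pool plates whose levels differ. Among the substance P wells at 24 h, the highest culture was at 186 CPM for the scavenger receptor Marco (next 72.4), 8.00 for the stress cytokine Gdf15 (next 2.54), 21.2 for the mitotic gene Cdc20 (next 9.45) and 15.5 for the peptidase Ece2 (next 8.11). Among the CRH wells at 24 h, Fkbp5 reached 31.8 CPM (next 18.6). Among the CRH wells at 72 h, the highest culture was at 164.7 CPM for Clybl (next 32.9), 65.7 for RP24-500I24.6 (next 1.47) and 34.2 for mt-Nd2 (next 10.3).

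The CRH difference at 72 h departed from that at 24 h for 67 genes in the limma fit over both times. The log2 difference between the times was 3.79 for Slc9a9 (adjusted p 2.31e-05), 3.32 for Clybl (0.0322), 3.26 for Ccnf (0.0232), 3.08 for Selenbp1 (0.0454), -3.43 for Runx2 (0.0454), -4.85 for RP24-500I24.6 (0.0166) and -3.14 for mt-Nd2 (0.0246). Cell lot, plate and well position also differed between the times and cannot be told apart from time.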

How the results depend on the processing

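No paired analysis was possible because the labels carry no replicate numbers, and plate was the block in each fit. For substance P, 0 calls stood in all limma settings, and the rank-sum test over all cultures gave 1. For CRH, calls were 170 without covariates, 332 with no filter on low values, 2 with all stimuli in 1 fit and 1040 by the rank-sum test over all cultures. Of the 332, 329 had a mean under 1 CPM. On plates 1 and 2 alone there were 819 genes at an unadjusted p under 0.05 and no call. For substance P against CRH, calls were 213 with no filter and 1 with all stimuli. For CRH at 72 h they were 34 without covariates, 169 with no filter, 444 with well type as edge or middle, 3 and 135 on single plates, 148 in the joint fit, and 178 to 300 leaving out 1 culture. For the difference between times they were 808 without covariates, 187 with plate only, and 18 to 78 leaving out 1 culture, lowest without CRH replicate 6 of 24 h. The cause was not tested.

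These log2 differences changed sign. Substance P without covariates: Fos 0.89, Il1a -0.24, Lcn2 -0.76, Tnf -0.68, Il1b -0.78, Lgals3 0.0486. Tnf was -0.0041 with all stimuli and -0.19 without plate 2, and with library pool in place of plate Il1b was -0.47 and Marco -0.0033. CRH without covariates: Oraov1 -0.70, Prg4 -0.55, Ifih1 -0.48, Slc50a1 0.14, Fos 1.48, Nr4a1 1.93, Il1a -0.30, Lcn2 -1.65, Tnf -0.51, Il1b -0.60, Mcm2 -0.64. With all stimuli, Ifih1 was -0.0442, Nr4a1 0.48 and Mcm2 -0.0638, and Nr4a1 was 0.37 with plate only and with edge or middle and ran from -1.03 to 0.44 leaving out 1 CRH culture. By the exact rank-sum test over all cultures the direction turned for Oraov1 (adjusted p 0.369), Prg4 (0.522), Ifih1 (0.225), Slc50a1 and Yam1 (both 0.969). Without plate 2, Clspn was 0.25 and Hjurp 0.10, and with library pool Il1b was -0.12 and Sgk1 -0.0574. Settings chosen after seeing the data were the rank-sum test over all genes (for named genes it was planned), edge or middle, leaving out plate 2, the single plates and the joint fit at 72 h, and plate only for the difference between times. Depth limited low genes, since 1 read was worth up to 0.918 CPM.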
